A study of Mus musculus with 6 samples.

Results

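Hypoxia-inducible factors (HIFs) are transcription factors that switch on genes for glycolysis, blood vessel growth and mitochondrial turnover when oxygen is scarce. Their alpha subunits are encoded by Hif1a and Epas1 (HIF-2α) and pair with a constant beta subunit. In oxygenated cells, prolyl hydroxylases such as those encoded by Egln1 and Egln3 mark the alpha subunits for destruction through the VHL ubiquitin ligase, so that much of the control acts on protein rather than mRNA. The genes described here are 10 named genes of this pathway, taken from the 55487 gene identifiers of the count table: the regulators Hif1a, Epas1, Egln1 and Egln3, and the targets Vegfa, Adm, Bnip3, Ankrd37, Ndrg1 and Ddit4.

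All 10 genes passed the filter on low counts, which kept 19015 genes. Bulk RNA-sequencing compared 3 cultures in normal glucose (5 mmol/L) with 3 in high glucose (20 mmol/L), each kept for 48 hours. The cultures were labelled endothelial cells from C57BL/6 mouse skin, prepared from 4 to 6 mice aged 2 to 3 months and enriched with beads against CD31. The paper counts these 3 samples per group as mice, but neither it nor the labels say whether they came from separate isolations, so the P values measure only the spread between these samples, which may be technical. Total counts were 120192466, 135253663 and 124212369 in the normal glucose samples against 146881356, 121930179 and 139967043 in the high glucose samples for replicates 1, 2 and 3.

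Several endothelial markers were at or near 0 in all 6 samples. Pecam1, which encodes CD31, had between 9 and 19 counts per sample, and Cdh5 between 91 and 242. Sox17 had 0 counts in every sample, which allows at most 3 counts or between 0.0204 and 0.025 CPM (counts scaled to a common library total), while Tie1, Robo4 and Cldn5 had at most 4 counts in any sample. The 19 listed endothelial genes summed to 237, 256 and 262 CPM in normal glucose and to 203, 196 and 203 CPM in high glucose, mostly from Eng, which other cells of skin also express. Eng itself was not called (log2 fold change -0.14, adjusted P = 0.113 by edgeR). The sums and percentages in this paragraph were scaled by library total alone, whereas the calls used the TMM scaling described below. Flt1 had between 4457 and 8030 counts per sample, and Egfl7, Ecscr, Plvap and Kdr between 503 and 1464. Of the 13 that could be tested, 4 were called lower (Cdh5, Flt1, Egfl7 and Ecscr) and 3 higher (Tek, Erg and Plvap). Beside this and the other counts of calls in this paragraph, 14.5% of all tested genes were called lower and 16.9% higher. By contrast, the 13 listed fibroblast genes held 4.4%, 4.12% and 4.38% of all counts in the normal glucose samples against 7.17%, 7.3% and 6.9% in the high glucose samples, with Col3a1 the most abundant, and 10 of them were called higher and 2 lower (Thy1 and Twist2) by edgeR. The samples are therefore given no cell type name here. The 8 pericyte and smooth muscle genes, led by Acta2, summed to 739, 665 and 720.2 CPM in the normal glucose samples against 518, 508 and 539 CPM in the high glucose samples, mostly from Acta2 and Tagln. Of these genes 5 were called lower and 1 higher (Rgs5, log2 fold change 1.20, adjusted P = 3.6e-04), and Notch3 and Myh11 were not called. The lymphatic endothelial genes summed to between 384 and 390.2 CPM in normal glucose and to between 224 and 232 CPM in high glucose, nearly all from Pdpn, which fibroblasts also express. Adipocyte genes, led by Fabp4, summed to 269, 217 and 228 CPM in the normal glucose samples against 238, 269.9 and 256 CPM in the high glucose samples, with 3 of the 4 called higher. Schwann cell genes, led by Ngfr, summed to between 145 and 158 CPM in normal glucose and between 174 and 178 CPM in high glucose. Of these 1 was called higher and 2 lower. Macrophage and leukocyte genes, led by Cd14, summed to between 18.1 and 20.2 against 25.9 and 26.7 CPM, with 1 called higher and 2 lower. Keratinocyte and melanocyte genes summed to at most 5.25 and 2.14 CPM, led by Trp63 and Pmel, and Krt5 and Pmel were called higher. Krt5 had 2 counts in each normal glucose sample against 12 to 23 in high glucose. Krt14, not tested, had 0 to 2 against 9 to 35. In bulk samples, fewer cells of a type and less RNA per cell cannot be told apart. The part that these marker changes play in the results was not tested.

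By edgeR's quasi-likelihood test, with P values adjusted over all 19015 genes by the Benjamini-Hochberg method and a threshold of 0.05, 4 of the 10 genes were higher in high glucose (Hif1a, Epas1, Egln3 and Adm), 2 were lower (Egln1 and Bnip3) and 4 were not called (Vegfa, Ankrd37, Ndrg1 and Ddit4). Among all tested genes 16.9% were called higher and 14.5% lower. Of all calls, 46.2% were lower, against 56.5% with upper quartile normalization and 72.9% with scaling by library size alone. Scaling by library size, which moved the median of all genes to -0.109, gave 5 lower and 3 higher of the 10 genes. It gave 4884 lower and 1819 higher of all 19015 genes. High and normal samples did not overlap in 8 of the 10 genes, against 46.4% of all tested genes. The median log2 fold change of the 10 genes was -0.0044, and that of all tested genes was 0.0062.

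**Figure D1:**
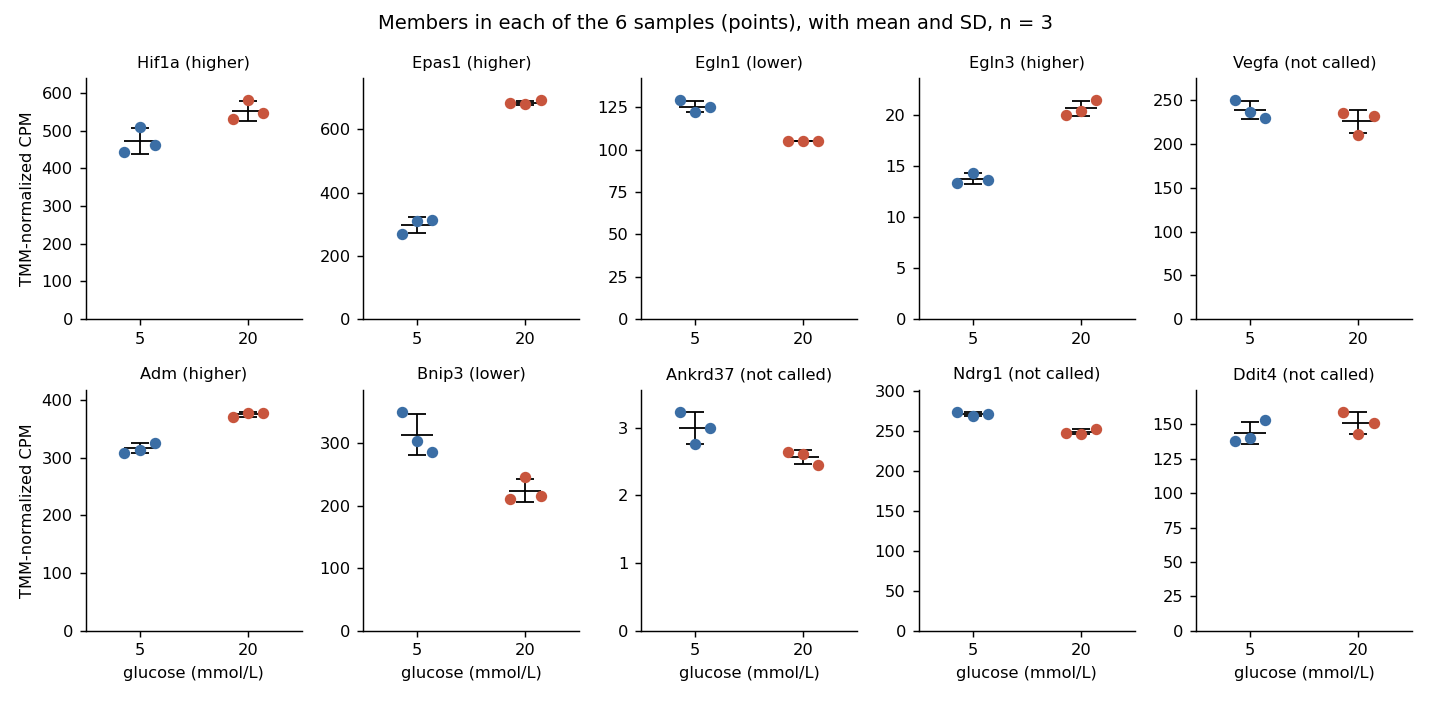
TMM-normalized CPM of each of the 10 genes in the 3 samples at 5 mmol/L and the 3 samples at 20 mmol/L glucose; points are samples, and horizontal lines and bars give the mean and SD. Epas1 ranged from 269 to 314 CPM at 5 mmol/L and from 679 to 692 CPM at 20 mmol/L, whereas the samples of Vegfa and Ddit4 overlapped between groups.

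Epas1 encodes HIF-2α. The table lists it as ENSMUSG00000024140, chromosome 17, 86753700 to 86833410, plus strand of GRCm38, the build used throughout. Its TMM-normalized level was 269, 311 and 314 CPM in the normal glucose samples against 682, 679 and 692 CPM in the high glucose samples for replicates 1, 2 and 3. Every high glucose sample was above every normal glucose sample, and the lowest high sample was 2.16 times the highest normal sample. Epas1 rose by a log2 fold change of 1.20 (standard error 0.066, 95% interval 1.06 to 1.35, adjusted P = 5.9e-07). This was a rise of 129.8%, and 313 of the 19015 tested genes had a larger log2 fold change. Over the 6 samples, the genes whose log2 CPM followed that of Epas1 most closely were Cacna1d, Castor2, Svep1, Trib1 and Sfrp1, with Pearson's r between 0.9995 and 0.9998. The 6 samples fall into 2 groups, and 366 of the 12478 genes searched had r above 0.99.

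Hif1a (ENSMUSG00000021109, chromosome 12, 73901375 to 73947530, plus strand) encodes HIF-1α. Its level was 445, 511 and 462 CPM in the normal glucose samples against 531, 581 and 546 CPM in the high glucose samples. The groups did not overlap, but the lowest high sample was only 1.04 times the highest normal sample. The log2 fold change was 0.22 (standard error 0.064, 95% interval 0.08 to 0.37, adjusted P = 0.0231). The call did not hold when normal glucose replicate 3 or high glucose replicate 1, 2 or 3 was left out (adjusted P = 0.0947, 0.0589, 0.124 and 0.088), nor when low-count genes were kept or libraries were scaled by size alone (adjusted P = 0.0821 and 0.216), and the adjusted P over all alternatives ran from 0.00173 to 0.216. Its exons overlap those of Gm15283 on the opposite strand, which had between 48 and 119 counts per sample. The genes that overlap Bnip3 and Ndrg1 on the opposite strand (Gm45507, Gm17035 and Gm2895) had at most 10 counts.

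Per kilobase of exon, Hif1a had 80.2 ± 5.83 CPM and Epas1 53.3 ± 4.53 CPM in normal glucose (SD, n = 3), and 93.7 ± 4.37 CPM and 122 ± 1.26 CPM in high glucose. The balance of the 2 mRNAs differed between groups: the Epas1 share of their summed counts per kilobase was 38.9%, 39% and 41.7% in the normal glucose samples against 57.6%, 55.2% and 57.2% in the high glucose samples. By counts per kilobase, Epas1 was thus the less abundant mRNA in each normal glucose sample and the more abundant in each high glucose sample. A single exon length was used for each gene, although Hif1a had 5 annotated transcripts and Epas1 had 2.

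Egln3 (ENSMUSG00000035105, chromosome 12, 54178981 to 54203860, minus strand) encodes the prolyl hydroxylase PHD3 and is itself a HIF target. Its level was 13.3, 14.3 and 13.6 CPM in the normal glucose samples against 20, 20.4 and 21.4 CPM in the high glucose samples, with no overlap between groups. Egln3 rose by a log2 fold change of 0.58 (standard error 0.06, 95% interval 0.45 to 0.72, adjusted P = 4.3e-05). Egln1 (ENSMUSG00000031987, chromosome 8, 124908587 to 124949324, minus strand) encodes PHD2, the main oxygen-sensing hydroxylase of most cells. It went the other way: 129, 122 and 125 CPM in normal glucose against 105, 105 and 105 CPM in high glucose. Every high glucose sample was lower than every normal one. The log2 fold change of Egln1 was -0.26 (standard error 0.048, 95% interval -0.37 to -0.15, adjusted P = 0.00222), a change of -16.5%.

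Per kilobase, Egln1 stood at 34.9 ± 0.886 CPM in normal and 29.1 ± 0.0466 CPM in high glucose (SD, n = 3), and Egln3 at 5.16 ± 0.192 and 7.73 ± 0.288 CPM. Of the summed counts per kilobase of Egln1, Egln2 and Egln3, the share of Egln3 was 7.13%, 8.45% and 7.47% in the normal glucose samples against 11.6%, 12.1% and 12.6% in the high glucose samples. The share of Egln1 was 50.9%, 53.4% and 51.2% against 45%, 46.1% and 45.4%. The Egln2 shares overlapped, from 38.1% to 42% in normal glucose and from 41.8% to 43.4% in high glucose.

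**Figure D2:**
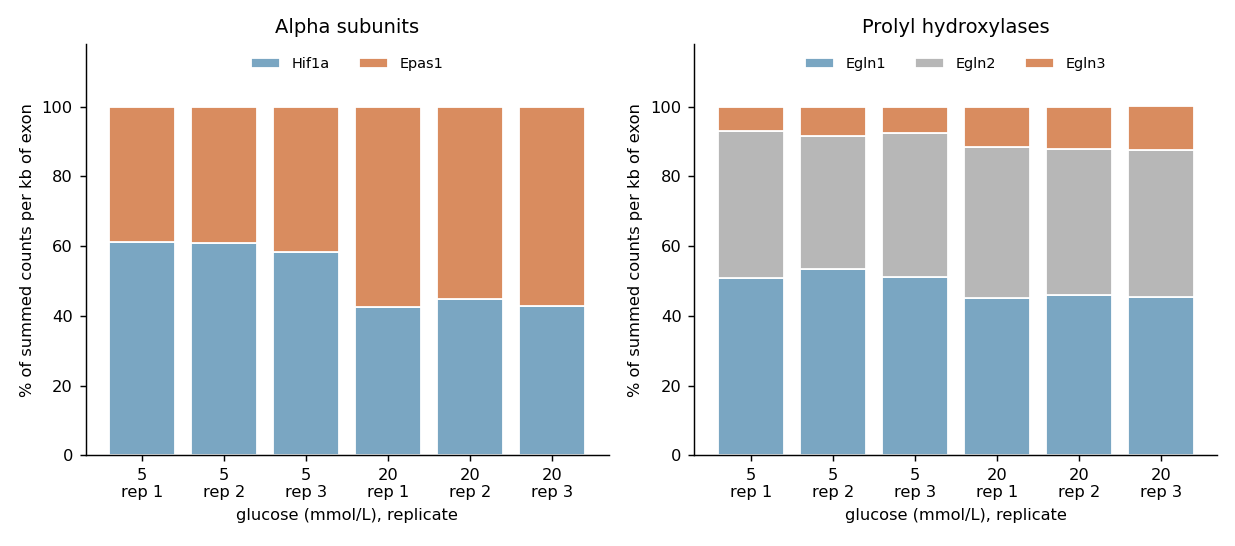
Shares, in percent, of the summed counts per kilobase of exon of Hif1a and Epas1 (left) and of Egln1, Egln2 and Egln3 (right) in each of the 6 samples, labelled by glucose concentration in mmol/L and replicate. The Epas1 share ranged from 38.9% to 41.7% at 5 mmol/L and from 55.2% to 57.6% at 20 mmol/L.

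Among the targets, Adm (ENSMUSG00000030790, chromosome 7, 110627661 to 110629820, plus strand) encodes the vasodilator peptide adrenomedullin. Its level was 309, 314 and 326 CPM in the normal glucose samples against 370.2, 377 and 378 CPM in the high glucose samples. The groups did not overlap. Adm rose by a log2 fold change of 0.25 (standard error 0.048, 95% interval 0.14 to 0.35, adjusted P = 0.00337), or 18.5%. Under library size scaling it was 0.13 (adjusted P = 0.0489, the highest of a range from 1.5e-04), or 0.24 relative to the median of all genes.

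Bnip3 (ENSMUSG00000078566, chromosome 7, 138890836 to 138909519, minus strand) encodes a mitochondrial protein that promotes mitophagy. Its level was 349.7, 304 and 286 CPM in the normal glucose samples against 210.3, 245 and 216 CPM in the high glucose samples. The normal glucose samples were the more variable, and all 3 were above the highest high glucose sample. Bnip3 fell by 0.49 on the log2 scale (standard error 0.083, 95% interval -0.67 to -0.30, adjusted P = 0.00141), or -28.6%. Its relative Bnip3l had a log2 fold change of -0.05 and was not called (adjusted P = 0.573). Bnip3l was set beside Bnip3 after its values were seen.

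Vegfa (ENSMUSG00000023951, chromosome 17, 46016993 to 46032369, minus strand) encodes the main endothelial growth factor. It had 249.8, 237 and 230.1 CPM in the normal glucose samples against 235, 210.4 and 232 CPM in the high glucose samples. The groups overlapped, and the log2 fold change of -0.08 had a 95% interval of -0.21 to 0.05 (adjusted P = 0.335); it was -0.13 without high glucose replicate 1 and -0.047 without high glucose replicate 2. Under library size scaling it was -0.20 and called lower (adjusted P = 0.0327, within a range up to 0.623), or -0.09 relative to the median of all genes. Ddit4 (ENSMUSG00000020108, chromosome 10, 59949669 to 59951834, minus strand) encodes the mTORC1 inhibitor REDD1. It had 138, 139.8 and 153 CPM in the normal glucose samples against 159, 143 and 151 CPM in the high glucose samples. Its samples overlapped too, with a log2 fold change of 0.07 and a 95% interval of -0.06 to 0.21 (adjusted P = 0.403). The value was -0.042 under library size scaling, or 0.07 relative to the median of all genes. Leaving out each sample in turn gave from 0.016 (without high glucose replicate 1) to 0.11 (without normal glucose replicate 3), with 0.026 and 0.042 without normal glucose replicates 1 and 2.

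Ndrg1 (ENSMUSG00000005125, chromosome 15, 66929318 to 66969640, minus strand) is induced by hypoxia and by differentiation. It had 274, 269 and 272 CPM in the normal glucose samples against 248, 247 and 253 CPM in the high glucose samples. The spread within each group was small and the groups did not overlap, but the log2 fold change of -0.12 (standard error 0.046) did not pass (adjusted P = 0.0695). It did pass without normal glucose replicate 1 (adjusted P = 0.0318) and under 6 further alternatives, and its adjusted P over all alternatives ran from 0.00266 to 0.153. Ankrd37 (ENSMUSG00000050914, chromosome 8, 45996902 to 46005707, minus strand) encodes an ankyrin repeat protein. It was the least abundant of the 10 genes, with 3.23, 2.76 and 3 CPM in the normal glucose samples against 2.64, 2.61 and 2.45 CPM in the high glucose samples. These groups did not overlap either, and the log2 fold change was -0.22 (standard error 0.1, 95% interval -0.45 to 0.00, adjusted P = 0.119). With GC and length trends of the libraries removed it was -0.081 (adjusted P = 0.502, within a range of 0.0244 to 0.541). Under library size scaling it was -0.34 and called lower (adjusted P = 0.0244), or -0.23 relative to the median of all genes. The values of Ankrd37, from 303 to 405 counts per sample, are uncertain because its exons overlap those of Ufsp2, with 5401 to 7130 counts, and Lrp2bp on the opposite strand, and strand use in the counting is not given.

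**Figure D3:**
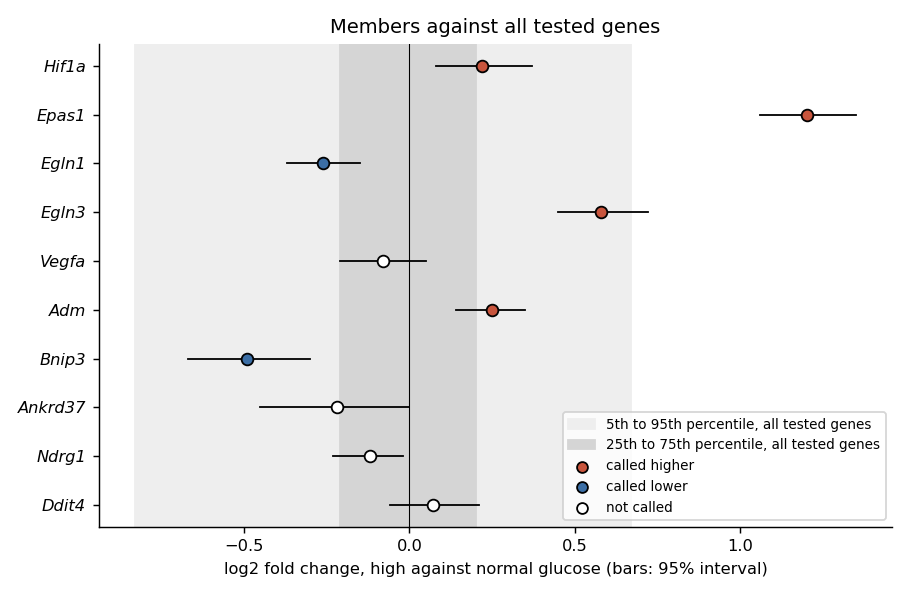
Log2 fold change of high against normal glucose for the 10 genes, with 95% intervals as bars, filled where the gene was called. Grey bands give the range of all tested genes between the 25th and 75th percentiles (-0.21 to 0.20) and the 5th and 95th percentiles (-0.83 to 0.67); Epas1, at 1.20, lay outside the wider band.

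The order of the levels per kilobase also differed between groups. Each gene was given a single exon length, although Vegfa and Ndrg1 had 13 annotated transcripts and Egln1 had 1. The order may therefore depend on which transcripts were expressed. In normal glucose it was Adm (195 ± 5.42 CPM, SD, n = 3), Bnip3 (138 ± 14.5), Ddit4 (81.8 ± 4.65), Hif1a, Vegfa (55.7 ± 2.34), Epas1, Ndrg1 (41.1 ± 0.353), Egln1, Egln3 and Ankrd37 (1.95 ± 0.153). Ddit4 and Hif1a differed by less than either SD, and Vegfa and Epas1 by less than the SD of Epas1. In high glucose Adm (232 ± 2.68) was followed by Epas1, Bnip3 (98.8 ± 8.23), Hif1a, Ddit4 (86 ± 4.44), Vegfa (52.7 ± 3.13), Ndrg1 (37.8 ± 0.449), Egln1, Egln3 and Ankrd37 (1.67 ± 0.0673). Bnip3 and Hif1a then differed by less than the SD of Bnip3, and Hif1a and Ddit4 by more than either SD.

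The letters of the HIF binding core were looked for in RefSeq promoter windows of 300 bases (250 before to 50 after the start site, GRCm38.p6), which 8 of the 10 genes had (9 windows in all). Epas1 and Ndrg1 had no window in the table. The core ACGTG, which reads CACGT on the other strand, was in 7 of these 9 windows and in 19.6% of all 32851 windows; the core GCGTG, reading CACGC, was in 6 of the 9 and in 32.4% of all windows. Vegfa had 2 windows, with both cores in the one inside the gene and neither in the one at its annotated start. The windows of Hif1a and Ankrd37, both with ACGTG, also lie between the annotated start and end of their genes. ACGTG overlaps the E-box CACGTG, found in 7.15% of all windows, and the 2 matches of Bnip3 are the 2 strands of such an E-box. Matching letters do not show binding. The stretches before the first annotated exon are printed for a gene that rose (Egln3, chr12:54203875-54204124), a gene that fell (Bnip3, chr7:138909520-138909756) and a gene that was not called (Ddit4, chr10:59951835-59952020), all 3 on the minus strand and 5′ to 3′, with ACGTG on either strand in capitals.
Egln3: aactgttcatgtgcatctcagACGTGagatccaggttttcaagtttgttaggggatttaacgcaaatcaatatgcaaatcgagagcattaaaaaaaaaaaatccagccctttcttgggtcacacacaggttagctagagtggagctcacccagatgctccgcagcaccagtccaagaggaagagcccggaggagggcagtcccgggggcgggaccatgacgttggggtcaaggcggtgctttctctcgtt
Bnip3: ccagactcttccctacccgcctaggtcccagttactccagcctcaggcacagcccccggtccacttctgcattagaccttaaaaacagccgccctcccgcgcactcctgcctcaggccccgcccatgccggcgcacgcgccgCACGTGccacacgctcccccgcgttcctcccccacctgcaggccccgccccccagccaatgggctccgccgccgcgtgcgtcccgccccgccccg
Ddit4: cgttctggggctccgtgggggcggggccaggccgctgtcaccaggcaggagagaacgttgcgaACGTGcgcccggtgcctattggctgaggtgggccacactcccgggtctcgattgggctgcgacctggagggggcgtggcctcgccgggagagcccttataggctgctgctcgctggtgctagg
Distances were counted from the RefSeq start site, which lies inside the first annotated exon in Bnip3 and Ddit4. The match lies 229 bases before this site in Egln3, 108 bases before it in Bnip3 and 187 bases before it in Ddit4.

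Of the 15 other HIF pathway components, 4 were called higher and 0 lower by edgeR (1 lower at an unadjusted P under 0.05, and 1 with DESeq2), with a median log2 fold change of 0.016, against 16.9% higher, 14.5% lower and a median of 0.0062 among all tested genes. With upper quartile normalization and library size scaling the median was -0.027 and -0.099, but these scalings moved all genes alike, with all-gene medians of -0.0365 and -0.109. Under library size scaling 2 of the 15 were higher and 4 lower, against 1819 higher and 4884 lower of all 19015 genes. With GC and length trends of the libraries removed the median was -0.02, against 0.00662 for all genes. Arnt, the beta subunit, rose from 90.5 ± 3.38 to 109 ± 0.711 CPM (SD, n = 3), or by 0.27 on the log2 scale (adjusted P = 0.00256). The coactivator genes Ep300 and Crebbp had log2 fold changes of 0.60 and 0.29 (adjusted P = 0.00524 and 0.0129), and Siah1a, a ubiquitin ligase gene, had 0.22 (adjusted P = 0.023). Normal glucose replicate 1 had 40.9 CPM of Ep300, against 62.3 and 60.1 CPM in normal glucose replicates 2 and 3. Leaving out each sample in turn gave from 0.42 to 0.70 for Ep300, which was called each time. With GC and length trends removed, Ep300 had a log2 fold change of 0.35 and Crebbp -0.014. The Crebbp call was also lost without normal glucose replicate 3 or high glucose replicate 1 or with library size scaling (adjusted P = 0.062, 0.0889 and 0.102, within a range of 0.00271 to 0.855), and the Siah1a call was lost without any sample but normal glucose replicate 1 (adjusted P from 0.0534 to 0.107, within a range of 6.3e-04 to 0.21), with upper quartile normalization, library size scaling or the replicate block, and with low-count genes kept.

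Glycolysis genes were mostly lower. Of the 20 hypoxia-inducible glycolysis genes, 15 were called lower and 1 higher, with a median log2 fold change of -0.38, against 14.5% lower and a median of 0.0062 among all tested genes. Pgk1 (phosphoglycerate kinase) fell from 999.8 ± 26.3 to 637 ± 17.1 CPM (SD, n = 3), which is -0.65 on the log2 scale (adjusted P = 6.3e-06). Eno1 (enolase), Pgam1 (phosphoglycerate mutase), Pkm (pyruvate kinase) and Pfkp (phosphofructokinase) had log2 fold changes of -0.60, -0.58, -0.53 and -0.51 (adjusted P from 1.0e-05 to 3.1e-04). Pfkfb3, whose product makes an activator of phosphofructokinase, rose from 102 ± 6.17 to 127 ± 3.04 CPM (log2 fold change 0.31, adjusted P = 0.00222). The 4 genes that were not called were Slc2a1, Slc2a3, Pfkfb4 and Ldha, named after their values were seen; Slc2a1, the main glucose transporter gene, had 180.1 ± 7.06 and 175 ± 5.84 CPM.

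The 45 tested genes of 47 other hypoxia-inducible genes moved in both directions, with 18 called lower, 13 higher and a median log2 fold change of -0.048, against 14.5% lower and 16.9% higher among all tested genes. With library size scaling, which gave 4884 lower and 1819 higher of all 19015 genes, 26 were called lower and 7 higher. The median was then -0.16, or -0.05 relative to the median of all genes. Epo and Cxcr4 were below the filter, with at most 1 and 2 counts in any sample. Among genes with a mean log2 CPM of 1 or more, the largest falls were in Cox4i2 (a cytochrome c oxidase subunit), Vldlr (a lipoprotein receptor), Hmox1 (heme oxygenase), Fam162a and Tfrc (the transferrin receptor), with log2 fold changes of -1.21, -0.96, -0.86, -0.60 and -0.56. Fam162a had -0.38 with GC and length trends removed. Car12, with at most 60 counts in any sample, had -0.79 (adjusted P = 0.0281). Hmox1 fell from 533 ± 12.4 to 293 ± 6.48 CPM (SD, n = 3, adjusted P = 7.8e-07). The largest rises were in Angptl4 (a lipoprotein lipase inhibitor), Ppp1r3c (a glycogen-targeting phosphatase subunit), Plod2 (a collagen lysyl hydroxylase), Zfp395 and Lox (a collagen cross-linking oxidase), with log2 fold changes of 1.02, 0.90, 0.61, 0.39 and 0.39. Angptl4 rose from 195 ± 10.7 to 396 ± 13.2 CPM (SD, n = 3, adjusted P = 7.5e-07). Lox and Plod2 act on collagen, as do Loxl2, P4ha1 and P4ha2 of the same list. Loxl2 was called higher (log2 fold change 0.33, adjusted P = 0.00319). P4ha1 and P4ha2 were called lower (-0.19 and -0.27, adjusted P = 0.014 and 0.00467). Loxl2, P4ha1, P4ha2 and Car12 were named after their values were seen. In the same samples 10 of the 13 fibroblast genes, 3 collagen genes among them, were called higher as given above. The part of these fibroblast genes in the rises was not tested.

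**Figure D4:**
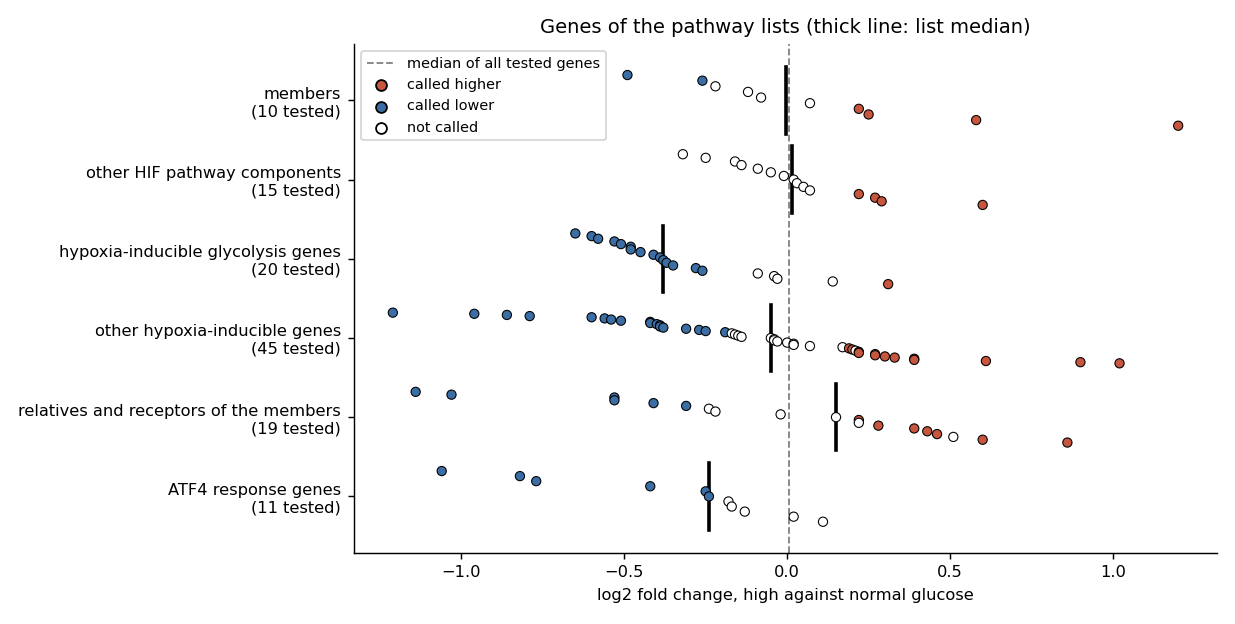
Log2 fold change of high against normal glucose for each tested gene of the 10 genes and of 5 lists of related genes; points are genes, filled where called, thick lines are list medians and the dashed line is the median of all tested genes. The glycolysis list has a median of -0.38, and the other hypoxia-inducible genes spread from -1.21 to 1.02.

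Relatives and receptors of the 10 genes gave 7 higher, 6 lower and 6 uncalled genes of 19, with a median log2 fold change of 0.15, against 16.9% higher and 14.5% lower among all tested genes. The median was 0.032 with GC and length trends removed, and 0.034 with library size scaling, which is 0.14 above the median of all genes in that setting. Around Vegfa, the ligand genes Vegfd and Vegfc rose and Vegfb fell, with log2 fold changes of 0.86, 0.43 and -0.31 (adjusted P = 1.3e-06, 4.6e-04 and 8.2e-04), while Pgf had -0.24 (adjusted P = 0.301), and -0.098 without normal glucose replicate 1 and -0.37 without high glucose replicate 3. Vegfd went from 155 ± 2.82 to 281 ± 13.7 CPM (SD, n = 3). The receptor gene Flt1 fell by 0.53 on the log2 scale (adjusted P = 3.0e-05), the co-receptor genes Nrp1 and Nrp2 rose by 0.60 and 0.28 (adjusted P = 8.3e-05 and 0.00352; Nrp2 by 0.12 with GC and length trends removed, a call lost with the replicate block added, adjusted P = 0.0994), and Kdr and Flt4 had 0.15 and 0.22 (adjusted P = 0.252 and 0.0747; 0.032 and 0.057 with GC and length trends removed, and 0.08 for Kdr without normal glucose replicate 1). Kdr was at only 4.96 ± 0.457 and 5.5 ± 0.228 CPM.

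Around Adm, the related peptide gene Adm2 fell from 5.11 ± 0.36 to 2.5 ± 0.222 CPM (SD, n = 3, log2 fold change -1.03, adjusted P = 3.6e-05). Of the receptor genes, Calcrl and Ramp3 had log2 fold changes of -0.41 and -1.14 (adjusted P = 0.00651 and 1.3e-05), Ramp1 had -0.22 (adjusted P = 0.331; -0.063 without normal glucose replicate 3), and the decoy receptor gene Ackr3 rose by 0.39 (adjusted P = 0.00158). Ramp2 had 14, 11.6 and 18.8 CPM in the normal glucose samples against 25.4, 12.4 and 25.5 CPM in the high glucose samples. Its high glucose replicate 2 lay within the normal range, and the log2 fold change of 0.51 was not called (adjusted P = 0.147) but was 0.77 without that sample and 0.34 without high glucose replicate 1 or 3 (adjusted P = 0.00984, 0.42 and 0.415, over all alternatives from 0.00984 to 0.42). With the replicate block it was 0.47 and called (adjusted P = 0.0315).

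For Ndrg1, the paralogs Ndrg2, Ndrg3 and Ndrg4 had log2 fold changes of 0.22, -0.02 and -0.53 (adjusted P = 0.0159, 0.856 and 3.2e-05), and the Ndrg2 call was lost without normal glucose replicate 3 or any high glucose replicate (adjusted P from 0.0541 to 0.0932, within a range of 0.00196 to 0.173), or with library size scaling. Ddit4l, the paralog of Ddit4, rose from 11.8 ± 0.519 to 16.2 ± 0.0247 CPM (SD, n = 3, log2 fold change 0.46, adjusted P = 2.8e-04). Ddit4 is also a target of the stress factor ATF4. Of 11 ATF4 response genes, 6 were called lower and 0 higher by edgeR (0 higher at an unadjusted P under 0.05 and 0 with DESeq2), with a median log2 fold change of -0.24, against 14.5% lower and 16.9% higher among all tested genes. Phgdh, Psat1 and Shmt2, enzymes of serine and glycine synthesis, had log2 fold changes of -1.06, -0.82 and -0.42, Chac1 (glutathione degradation) -0.77 and Sesn2 -0.25 (adjusted P from 1.7e-06 to 0.0112).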

How the data were processed

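By the study's methods and the labels, the authors cleaned the reads with Trimmomatic, used HISAT2 for alignment to GRCm38, and with StringTie made and deposited a whole-number count per gene and sample, not normalized. Versions, annotation release and strand use are not given in the sources used here. The counts of 6 samples were fitted with edgeR 4.0.16 (R 4.3.3). Genes passed filterByExpr with a minimum count of 10 and a minimum total of 15, scaling was by TMM, and the quasi-likelihood test was adjusted over 19015 genes by the Benjamini-Hochberg method, called at 0.05. Standard errors and 95% intervals of log2 fold changes were derived from the test statistic. The table holds 4874 entries of 4 against 4716 of 3, where fewer of the higher count are expected, so both reads of a pair may have been counted, and floors cover counting error only. With 3 samples against 3, an exact permutation test cannot go below 0.1. Gene positions, exon lengths and overlaps came from GENCODE (GRCm38), and promoter windows from RefSeq (GRCm38.p6). Of the identifiers, 55141 had a symbol. For Aldoa and Ddit3, which have several identifiers, that with the most counts was used. Alternatives used DESeq2 1.42.0 and mgcv 1.9.3. The fit was tested on simulated data, where it missed many changes among genes of low counts; the limit for passing was then set for better covered genes only. The members and lists were chosen with earlier results of these data known. Named from each list were up to 5 lower and 5 higher genes that were called, had a mean log2 CPM of 1 or more and did not overlap between groups, together with all listed relatives and receptors. Bnip3l, Car12, Loxl2, P4ha1, P4ha2 and the uncalled glycolysis genes were named outside this rule. For the gene with the greatest change, the 5 genes most correlated with it were named.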

Additional observations from a re-analysis of the deposited data

How the results depend on the processing

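Of 68 values tried under up to 17 alternatives, 51 changed neither direction nor call (for counts, moved by no more than 1.5 times) under any of them. Among the 10 genes these were Epas1, Egln1, Egln3, Adm and Bnip3. Scaling by library size alone moved the all-gene median of the log2 fold change from 0.00619 to -0.109, gave 4884 lower and 1819 higher genes against 2757 and 3212, and raised the share of calls that were lower from 46.2% to 72.9% (56.5% with upper quartile normalization). Under it 5 of the 10 genes were lower, Hif1a had a log2 fold change of 0.11 (not called), Vegfa -0.20, Ankrd37 -0.34 and Ndrg1 -0.24 (called), and Ddit4 -0.042 (not called). Relative to that median, Hif1a, Vegfa, Ankrd37, Ndrg1 and Ddit4 stood at 0.22, -0.09, -0.23, -0.13 and 0.07. It also gave 4 lower and 2 higher HIF pathway components, and 26 lower and 7 higher genes among the other hypoxia-inducible genes. Without the filter on low counts, in which more genes are tested, Hif1a had 0.20 and Siah1a 0.20, and neither was called. Ndrg1 was called with upper quartile normalization (-0.17), DESeq2 (-0.13), halved counts (-0.14) and the GC and length trend removed, without and with the replicate block (-0.18 and -0.18). Siah1a was not called with upper quartile normalization (0.18), nor Siah1a, Crebbp and Ndrg2 with library size scaling (0.11, 0.18 and 0.11); under it Adm, Nrp2, Arnt and Pfkfb3 had 0.13, 0.17, 0.15 and 0.20 and were still called. HIF pathway components called lower numbered 1 rather than 0 with RLE size factors, upper quartile normalization, DESeq2, the likelihood ratio test, halved counts and the replicate block with the trend removed, and 2 with the trend removed alone. Crebbp changed sign with the trend removed, to -0.014 and, with the replicate block, -0.016. Called in the same direction but over 1.5 times smaller with the trend removed were Ep300 (0.35 against 0.60), Nrp2 (0.12 against 0.28) and Fam162a (-0.38 against -0.60). Ankrd37, not called, had -0.081 with the trend removed and -0.082 with the replicate block too. List medians with the trend removed were 0.032 for relatives and receptors, -0.47 for glycolysis, -0.072 for other hypoxia-inducible and -0.19 for ATF4 response genes. The causes were not tested.

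Leaving out each sample in turn gave 1988 to 3149 higher genes, with 2010 without high glucose replicate 1 and 1988 without high glucose replicate 3, where fewer samples were fitted. Hif1a ranged from 0.16 to 0.27 and Ndrg1 from -0.15 to -0.13, HIF pathway components called lower from 0 to 1 and higher from 2 to 4 (2 without normal glucose replicate 3 or high glucose replicate 1), and, not called, Ndrg3 from -0.082 to 0.0059, Ddit4 from 0.016 to 0.11, Vegfa from -0.13 to -0.047, Pgf from -0.37 to -0.098, Ramp1 from -0.32 to -0.063 and Kdr from 0.08 to 0.22. For replicates 1, 2 and 3, the deviations in normal and in high glucose correlated at -0.025, 0.0038 and 0.013. Whether samples with the same number shared an isolation cannot be told from these values, with only 3 samples per group. With the replicate block, 2418 genes were lower and 2909 higher, and 2 and 4 of the 10 genes. With it the Siah1a call was lost and the Ramp2 call gained (adjusted P = 0.0509 and 0.0315), and with the trend removed too, the Nrp2 call was lost (adjusted P = 0.0994).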
